A study of Mus musculus with 12 samples.

Results

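The 9 genes described here belong to oligodendrocytes, the cells that wrap axons of the central nervous system in myelin: Mbp, Mag, Cnp, Mog, Mobp, Pllp, Olig1, Olig2 and Sox10. They were chosen as a named family, and their probes were found by gene symbol or synonym in the platform's annotation. Of the 9 genes, 7 had a probe with that name, 1 probe each, among 33012 probes that covered 13840 named genes. Mobp and Sox10 had no probe so named and are not analysed here. The arrays were single-colour chemiluminescent arrays hybridised with digoxigenin-labelled RNA from male mice. The congenic strain B6.CAST-17, homozygous here, is named for the donor CAST and for chromosome 17, and the controls were wild type B6. Hypothalamus and skeletal muscle were each profiled on 3 arrays per strain, which gave 12 arrays in 4 groups. The titles of the hypothalamus congenics call them short, whereas those of the muscle congenics do not, and no label gives age, treatment or the borders of the transferred segment. The series text describes 3 mice per strain as biological replicates. No label says whether 1 mouse gave both tissues.

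Oligodendrocytes arise from precursors under the transcription factors Olig1, Olig2 and Sox10, and then switch on the genes of the myelin sheath. Myelin basic protein (Mbp) glues the cytoplasmic faces of the membrane together, and its loss leaves central axons without compact myelin. Myelin-associated glycoprotein (Mag) lies next to the axon, myelin oligodendrocyte glycoprotein (Mog) lies on the outermost surface, and Cnp is an enzyme of the uncompacted cytoplasmic channels. Plasmolipin (Pllp) is a membrane protein of myelin that is also made in some epithelia. In peripheral nerves, which run through muscle, myelin is made by Schwann cells, which use Mbp and Mag as well but not Mog.

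The values are on a log scale whose base is not named and was taken as 2 from their range of 5.35 to 21.13. The median probe read 8.98 in hypothalamus and 9.12 in muscle. No detection calls were at hand, so a low value cannot be told from background, and different probes' levels cannot be ranked against each other. In hypothalamus, wild type array 1 stood apart. Its Spearman correlation with the other 5 arrays across probes was 0.42 to 0.461, against 0.775 to 0.853 among those 5. Among the 4165 probes that averaged above 13 elsewhere in hypothalamus, 1393 (33.4%) lay over 3 log2 units below that average on it. The probe of Actb, a cytoskeletal gene of every cell, read 8.86 there and 16.59 to 18.62 elsewhere. Of 2 probes of the elongation factor Eef1a1, 1 read 8.18 there and 19.52 to 20.30 elsewhere, while the other read 20.14 against 19.80 to 20.88. The hypothalamus comparison is therefore given with that array and without it. Congenic hypothalamus array 1 differed in another way. It read 17.46 for growth hormone (Gh) and 14.94 for prolactin (Prl), hormones of the anterior pituitary, where the other 5 arrays read 7.57 to 8.86 and 8.08 to 9.27. The pituitary genes Tshb and Pitx1 were higher on wild type array 1. The tissues matched their labels: 8 skeletal muscle genes had medians of 19.79 to 20.13 in muscle and 8.06 to 8.94 in hypothalamus, and 8 neuronal genes had medians of 8.18 to 9.85 and 12.25 to 16.10. Not every neuronal probe followed. Snap25 read 7.25 to 8.28 in muscle and 7.33 to 8.26 in hypothalamus, and Syt1 11.85 to 13.37 and 11.54 to 13.57.

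No gene of the family passed the test of the strain difference in either tissue (limma, Benjamini-Hochberg adjustment over all probes, threshold 0.05). Their hypothalamic values fell into different patterns instead. Mbp, Cnp, Olig1 and Mag were highest on congenic array 3. Mog and Pllp were highest on wild type arrays. Olig2 was higher on every congenic array than on any wild type array. In the hypothalamus 0 of 7 genes were called with all 6 arrays and 0 of 7 without wild type array 1, where the whole array gave 0% of probes called in each. With an unadjusted p under 0.05 the count was 1 of 7 in each fit, Mbp in the first and Pllp in the second, against 1.99% and 5.33% of all probes.

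**Figure D1:**
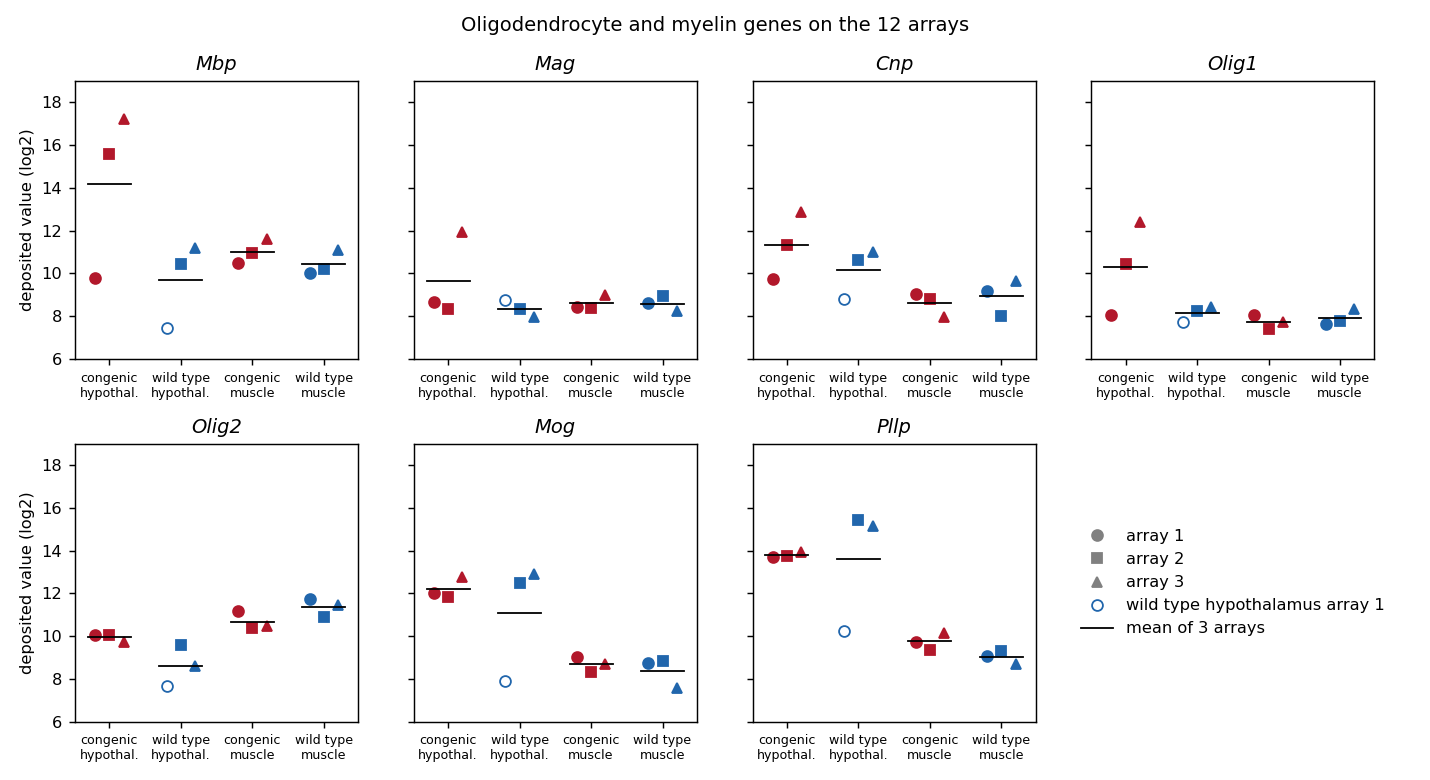
Deposited log2 value (vertical axis) of the 7 measured genes on each of the 12 arrays, by strain and tissue, with symbols for array number and a black line for the mean of 3 arrays. The open circle marks wild type hypothalamus array 1, which is the lowest hypothalamus array for 6 of the 7 genes, and the triangle of congenic hypothalamus array 3 is the highest for Mbp, Mag, Cnp and Olig1.

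Mbp covered the widest span. In hypothalamus it read 9.78, 15.57 and 17.24 on congenic arrays 1, 2 and 3, and 7.44, 10.46 and 11.17 on wild type arrays 1, 2 and 3. Congenic arrays 2 and 3 were above every wild type array, congenic array 1 was below wild type arrays 2 and 3, and so the groups overlapped. The congenic mean was 14.20 ± 3.92 (SD, n = 3) and the wild type mean 9.69 ± 1.98 (SD, n = 3). The difference, congenic minus wild type, was 4.51 (SE 1.84, 95% interval 0.29 to 8.73, adjusted p = 0.936 by limma). It was 3.38 with wild type array 1 left out (SE 1.81, 95% interval -0.79 to 7.56, adjusted p = 0.9 by limma). Among the congenic arrays alone Mbp ranged over 7.46 log2 units, a range reached by 9 of 33012 probes (0.0273%), Mbp included. The difference between the strains was thus smaller than the range within the congenic group.

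Of 7 pituitary genes measured, 5 (Gh, Prl, Pomc, Lhb and Cga) were highest on congenic array 1, the congenic array where Mbp was lowest. The hormone gene Tshb and the factor gene Pitx1 were highest on wild type array 1, at 12.92 and 11.13 against 12.35 and 11.04 on congenic array 1. On congenic arrays 1, 2 and 3 the median of 7 pituitary genes (of 9 listed) was 14.94, 10.30 and 8.86, and on the wild type arrays it was 10.37, 8.38 and 9.48. The Mbp difference was 5.59 without wild type array 1 and congenic array 1 (adjusted p = 0.572 by limma), and 1.86 without wild type array 1 and congenic array 3 (adjusted p = 0.606 by limma). What any pituitary RNA contributed to the Mbp values was not tested.

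Mag was at a similar level on 5 hypothalamus arrays and high on 1. It read 8.65, 8.33 and 11.93 on the congenic arrays and 8.76, 8.34 and 7.95 on the wild type arrays. Only congenic array 3 exceeded wild type array 1, and the other 5 values lay between 7.95 and 8.76, below the median probe. Mag was also the only one of the 7 genes that was not lowest on wild type array 1. The difference was 1.29 (SE 0.96, 95% interval -0.92 to 3.49, adjusted p = 0.936 by limma). It was 1.49 without wild type array 1, and 0.34 without that array and congenic array 3.

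Cnp followed the same arrays as Mbp over a smaller span. It read 9.74, 11.33 and 12.87 on the congenic arrays and 8.82, 10.62 and 11.01 on the wild type arrays, and the groups overlapped. The difference was 1.16 (SE 0.96, 95% interval -1.04 to 3.37, adjusted p = 0.936 by limma). Leaving out wild type array 1 brought it to 0.50, with a 95% interval of -1.30 to 2.29, and leaving out congenic array 3 as well turned it to -0.28.

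Mog and Pllp did not share that pattern. Mog read 12.02, 11.85 and 12.75 on the congenic arrays and 7.90, 12.47 and 12.91 on the wild type arrays. All but wild type array 1 lay between 11.85 and 12.91. The difference was 1.11 with all arrays (SE 1.26, 95% interval -1.77 to 3.99, adjusted p = 0.936 by limma) and -0.49 without wild type array 1 (SE 0.35, 95% interval -1.30 to 0.32, adjusted p = 0.9 by limma). The sign for Mog therefore rested on that array.

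Pllp was the gene with the tightest congenic values. It read 13.71, 13.76 and 13.95 on the congenic arrays, and 10.26, 15.45 and 15.16 on the wild type arrays. Its congenic range of 0.24 was equalled or exceeded by 94.5% of probes. Wild type arrays 2 and 3 were above all congenic arrays and wild type array 1 was below them. With all arrays the difference was 0.19 (SE 1.29, 95% interval -2.76 to 3.14, adjusted p = 0.98 by limma). Without wild type array 1 it was -1.5 (SE 0.28, 95% interval -2.14 to -0.85, unadjusted p = 0.000689, adjusted p = 0.9 by limma), which ranked 20 of 33012 probes by p. The 5 remaining arrays did not overlap, as was so for 13.3% of all probes in that direction. Leaving out congenic array 3 as well gave -1.57 with an adjusted p of 0.0131 (limma, 2 arrays against 2), in a fit that called 606 probes (1.84%).

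**Figure D2:**
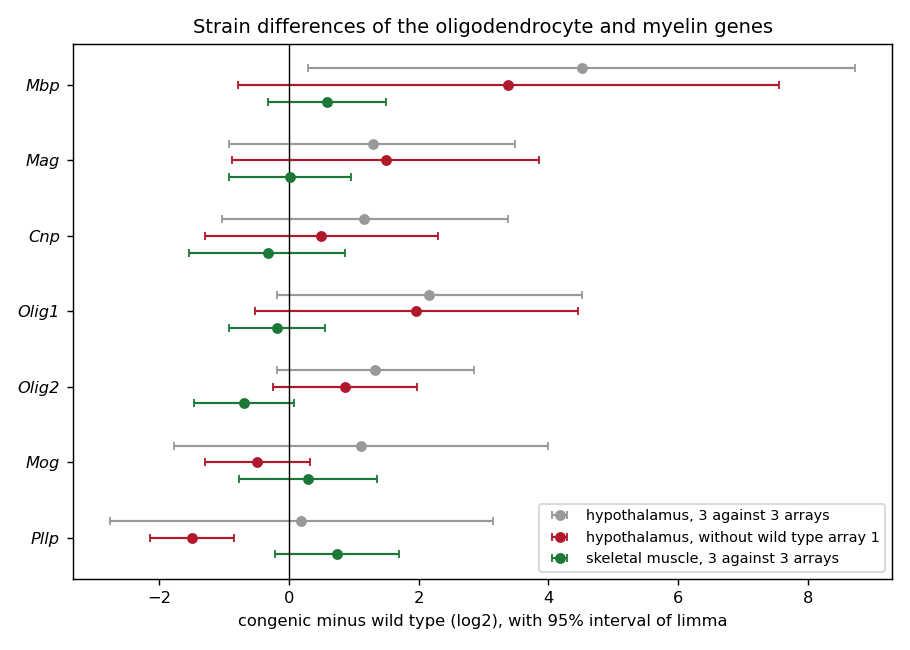
Congenic minus wild type difference (log2, horizontal axis) of each gene with its 95% limma interval, for hypothalamus with all 6 arrays, hypothalamus without wild type array 1, and skeletal muscle. The intervals are widest for Mbp in hypothalamus, and Pllp moves from 0.19 to -1.5 when wild type array 1 is left out.

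Among the transcription factors, Olig1 resembled Mbp. It read 8.07, 10.44 and 12.40 on the congenic arrays and 7.74, 8.26 and 8.42 on the wild type arrays. Congenic arrays 2 and 3 were above all wild type arrays, while congenic array 1 lay between wild type arrays 1 and 2. The difference was 2.16 (SE 1.03, 95% interval -0.19 to 4.52, adjusted p = 0.936 by limma), and 1.96 without wild type array 1. It ran from 1.11 to 3.28 with each array left out, and was 0.91 without wild type array 1 and congenic array 3. Its congenic range of 4.33 was reached by 91 of 33012 probes (0.276%).

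Olig2, the partner that specifies the lineage, behaved differently from Olig1. It read 10.05, 10.04 and 9.75 on the congenic arrays and 7.68, 9.57 and 8.60 on the wild type arrays. Every congenic array was above every wild type array, as for 3.47% of all probes. The difference was 1.33 (SE 0.66, 95% interval -0.18 to 2.85, adjusted p = 0.936 by limma). Without wild type array 1 it was 0.86 (SE 0.48, 95% interval -0.25 to 1.97, adjusted p = 0.9 by limma), and the groups still did not overlap, as for 9.32% of all probes.

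Across the family, the order of the arrays was shared by some genes. Mbp, Cnp and Olig1 had 1 order of the 6 hypothalamus arrays: congenic 3, congenic 2, wild type 3, wild type 2, congenic 1 and wild type 1, from highest to lowest. That order was found for 142 of 33012 probes (0.430%). The highest hypothalamus array was congenic array 3 for 4 of 7 genes, against 15.9% of all probes. The same array was the highest for 4 of 7 housekeeping genes, whose median was 18.62 on it and 16.59 to 17.80 on the others, and for 4 of 8 skeletal muscle genes. The lowest was wild type array 1 for 6 of 7 genes, against 28.0%. The median difference of the 7 genes was 1.29 with all arrays and 0.86 without wild type array 1, beside -0.07 and -0.01 over all probes. With all arrays the difference was above 0 for 7 of 7 genes, and without wild type array 1 for 5 of 7.

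**Figure D3:**
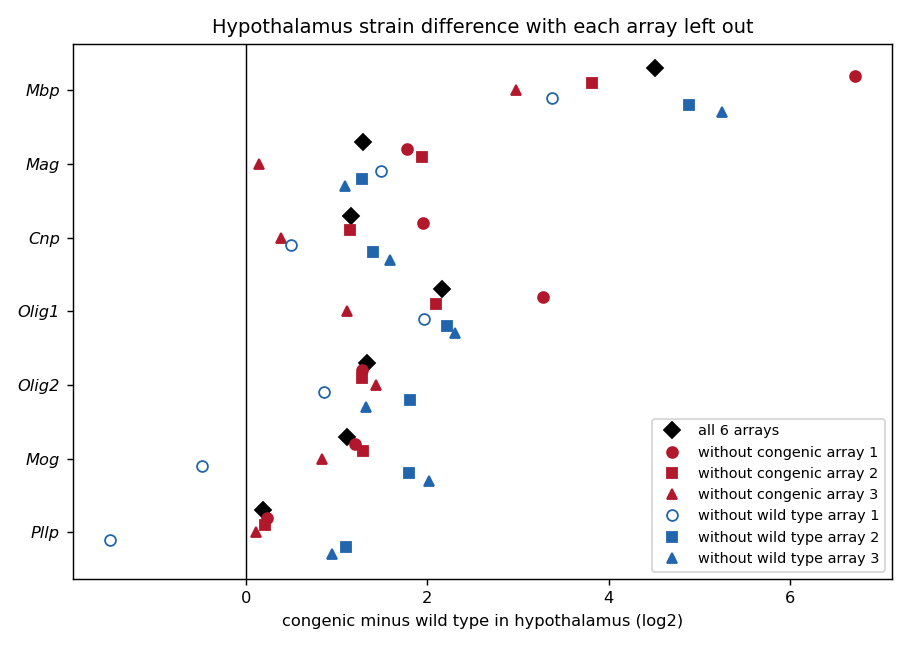
Congenic minus wild type difference in hypothalamus (log2, horizontal axis) of each gene with all 6 arrays (black diamonds) and with each array left out in turn. Mbp runs from 2.98 to 6.72 and stays above 0, while Mog and Pllp are below 0 only without wild type array 1 (open circles).

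The promoter sequences of 2 genes of each pattern are shown, Cnp and Mag for the genes highest on congenic array 3, and Mog and Pllp for those highest on a wild type array. Each is the 250 bases before the most upstream annotated start, 5′ to 3′ on the gene's strand, from RefSeq on the assembly GRCm38.p6. The table used held a sequence for 6 of the 9 genes. The motif searched on both strands was ACAAAG, a core that SOX factors such as Sox10 can bind, and its matches are in capitals. The intervals are chr11:100574689-100574938 (plus strand) for Cnp, chr7:30914923-30915172 (minus strand) for Mag, chr17:37023399-37023648 (minus strand) for Mog and chr8:94696243-94696492 (minus strand) for Pllp.
Cnp: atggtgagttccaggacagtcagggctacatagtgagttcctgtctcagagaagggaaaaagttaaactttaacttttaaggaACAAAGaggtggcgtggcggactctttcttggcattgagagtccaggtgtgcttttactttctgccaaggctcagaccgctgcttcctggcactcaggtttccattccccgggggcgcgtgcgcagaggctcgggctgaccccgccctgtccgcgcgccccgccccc
Mag: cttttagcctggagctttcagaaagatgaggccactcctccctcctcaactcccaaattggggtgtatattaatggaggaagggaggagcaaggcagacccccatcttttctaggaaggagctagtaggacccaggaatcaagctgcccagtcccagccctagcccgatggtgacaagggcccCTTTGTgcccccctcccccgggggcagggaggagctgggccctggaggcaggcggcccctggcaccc
Mog: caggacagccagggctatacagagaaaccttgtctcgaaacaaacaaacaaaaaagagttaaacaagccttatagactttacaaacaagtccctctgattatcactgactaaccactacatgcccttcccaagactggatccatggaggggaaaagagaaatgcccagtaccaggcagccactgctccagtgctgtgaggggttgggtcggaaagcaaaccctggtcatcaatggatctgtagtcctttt
Pllp: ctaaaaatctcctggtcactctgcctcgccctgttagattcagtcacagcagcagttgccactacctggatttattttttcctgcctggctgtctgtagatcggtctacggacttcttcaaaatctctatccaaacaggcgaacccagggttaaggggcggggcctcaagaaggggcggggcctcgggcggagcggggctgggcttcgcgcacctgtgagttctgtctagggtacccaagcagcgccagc
Cnp held 1 match, whose first base was at position -167 from the start, and Mag held 1, at position -67 and on the opposite strand. The windows of Mog and Pllp held none, and 16.5% of 32851 promoter windows held the motif. The palindrome CAGCTG, an E-box of the kind bound by Olig factors, was in none of these 4 windows and in 4271 of all windows. Of the other family members, the window of Olig2 held 0 matches to ACAAAG and that of Mobp, which had no probe, held 6. Mbp and Olig1 had no sequence in the table used. A match is a description of the letters, and the arrays did not measure binding.

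Most genes on other oligodendrocyte lists lay lower in the congenic hypothalamus once wild type array 1 was left out, though no single gene passed. Of the family, Mog (-0.49) and Pllp (-1.5) lay lower in that fit as well, while Mbp, Mag, Cnp, Olig1 and Olig2 lay higher. With congenic array 3 also left out, Cnp turned to -0.28 and Mag fell to 0.34. Of 88 genes on 5 lists of myelin, lineage and precursor genes, 69 were measured. With all 6 hypothalamus arrays 41 of the 69 lay higher in congenics and 28 lower, with a median difference of 0.09. Without wild type array 1, 12 lay higher and 57 lower, with a median of -0.39, whereas 50.7% of all probes lay lower. Among the 15409 probes with a mean above the median value, 54.1% lay lower, with a median of -0.05. None of the 69 genes passed in either fit, and 0 and 8 of them had an unadjusted limma p under 0.05. On the 5 arrays, 18 of the 69 were lower on every congenic array and 2 higher, against 13.3% and 9.32% of all probes. With a further array left out in turn, an alternative chosen after seeing the data, the count lower was 52 to 58 of 69, with 52 without congenic array 1 and 58 without congenic array 3. The lower count was thus seen only with wild type array 1 left out, and what lies behind it was not tested. Differences between arrays or dissections were not separated from it. In tissue, cell number and RNA per cell cannot be told apart either.

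Other myelin protein genes (14 of 20 measured) had a median difference of 0.46 with all arrays and -0.36 without wild type array 1. Mal, a raft protein of myelin, read 11.77 to 12.83 on the congenic arrays and 11.66 to 11.90 on the wild type arrays. The tight junction gene Cldn11 read 10.95 to 13.35 on the congenic arrays and 12.40 to 12.55 on wild type arrays 2 and 3, with 8.28 on array 1. Both were highest on congenic array 3. Omg, an axon growth inhibitor of myelin, read 14.91 to 16.66 against 15.73 to 16.56, and the connexin gene Gjc3 9.44 to 10.69 against 8.31 to 10.76, so neither separated the strains. Of the 14 genes 7 were highest on congenic array 3.

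Genes of myelin lipids (13 of 14 measured) had medians of 0.25 and -0.39. Fa2h, which hydroxylates myelin fatty acids, read 13.45 to 14.09 on the congenic arrays and 13.99 to 15.34 on the wild type arrays. The sulfatide enzyme Gal3st1 read 9.46, 9.41 and 11.56 against 7.74, 11.02 and 10.90, with congenic array 3 again the highest. Aspa, which splits N-acetylaspartate, read 10.44 to 11.07 against 8.0 on wild type array 1 and 10.49 to 10.59 on arrays 2 and 3. The very-long-chain ceramide synthase Cers2 read 12.99 to 13.65 on the congenic arrays, below 13.78 and 14.30 on wild type arrays 2 and 3, and 7.56 on array 1. Of these 4 genes, then, Cers2 alone was lower on every congenic array than on wild type arrays 2 and 3.

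Lineage regulators (13 of 20 measured) had medians of 0.04 and -0.40. Without wild type array 1, 12 of the 13 lay lower, against 50.7% of all probes. Nkx2-2, a homeodomain factor of differentiation, read 11.20 to 11.72 on the congenic arrays, 12.02 to 12.16 on wild type arrays 2 and 3 and 10.32 on array 1. Sox8, a relative of Sox10, read 7.80 to 9.28 against 8.73 to 9.81. Nkx6-2 read 12.40 to 13.06 against 12.99 to 13.35 on wild type arrays 2 and 3, and the zinc finger factor Myt1 9.50 to 10.66 against 10.43 to 10.64 on those arrays. Nkx2-2 was thus the member of this group of 4 whose congenic values lay below both of those arrays.

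Precursor genes (8 of 12 measured) had medians of -0.06 and -0.66. The growth factor receptor Pdgfra, which drives precursor division, read 8.35 to 9.29 on the congenic arrays and 9.28 to 11.06 on the wild type arrays. The NG2 gene Cspg4 read 9.45 to 10.73 against 10.99 to 11.18 on wild type arrays 2 and 3, and 8.25 on array 1. Bcas1, a mark of newly formed oligodendrocytes, read 15.58, 15.05 and 17.20 against 7.22, 16.24 and 17.14, and the matrix gene Vcan 7.94 to 9.98 against 8.28 to 9.77. Bcas1 thus had the contrast between wild type array 1 and the rest that Mog had.

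Genes of mature oligodendrocytes (21 of 22 measured) had medians of 0.04 and -0.38. On the 5 other arrays 18 of the 21 lay lower and 8 were lower on every congenic array. The transferrin gene Trf read 13.04 to 14.76 on the congenic arrays, 14.49 to 14.58 on wild type arrays 2 and 3, and 8.45 on array 1. Qdpr, which regenerates tetrahydrobiopterin, read 16.79 to 17.74 against 17 to 17.83, and the carbonic anhydrase gene Car2 15.11 to 16.12 against 15.71 to 15.92 on arrays 2 and 3. The actin-severing gene Gsn read 13.38 to 13.71, below all 3 wild type values of 13.91 to 14.91. The median level of the 21 genes was 12.68 to 13.18 on the congenic arrays, 13.30 to 13.66 on wild type arrays 2 and 3, and 10.67 on array 1.

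No astrocyte, neuronal, endothelial or microglial gene listed passed between the strains in hypothalamus, by limma. Without wild type array 1 the difference was above 0 for 4 of 6 astrocyte genes and for 3 of 8 neuronal genes. It was above 0 for 3 of 7 microglial and 1 of 5 endothelial genes. The median differences were 0.28, -0.07, -0.07 and -0.89 in that order. The endothelial median was thus below the -0.66 to -0.36 of the 5 oligodendrocyte lists. Against wild type arrays 2 and 3, 3 of the 5 endothelial genes were lower on every congenic array, as were 13.3% of all probes. With all 6 arrays 0 of the 5 were. The median level of 6 astrocyte genes was 11.07 to 12.39 on the congenic arrays and 10.22 to 10.80 on the wild type arrays. That of 8 neuronal genes was 14.87 to 16.02 on the congenic arrays and 16.04 to 16.10 on wild type arrays 2 and 3, and that of 5 endothelial genes 8.85 to 10.35 and 10.16 to 10.45. Microglial genes overlapped, at 11.81 to 12.34 on the congenic arrays and 12.07 to 12.34 on wild type arrays 2 and 3, over 7 genes. On wild type array 1 the neuronal, endothelial and microglial medians were 12.25, 8.46 and 9.28. The part of cell makeup in the strain differences was not tested.

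Signals and receptors of myelination (14 of 18 measured) had medians of -0.01 and 0.09. Erbb2, a neuregulin co-receptor, read 7.49 to 9.98 against 7.94 to 9.47, and the growth factor receptor Igf1r 13.73 to 14.14 against 14.05 to 14.23. Lingo1, which restrains differentiation, read 12.04 to 13.21 on the congenic arrays, 13.61 to 13.66 on wild type arrays 2 and 3 and 10.73 on array 1. The Nogo receptor gene Rtn4r read 9.92 to 11.36 against 10.78 to 11.47. Lingo1, like Nkx2-2, was thus lowest on wild type array 1 and highest on wild type arrays 2 and 3.

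**Figure D4:**
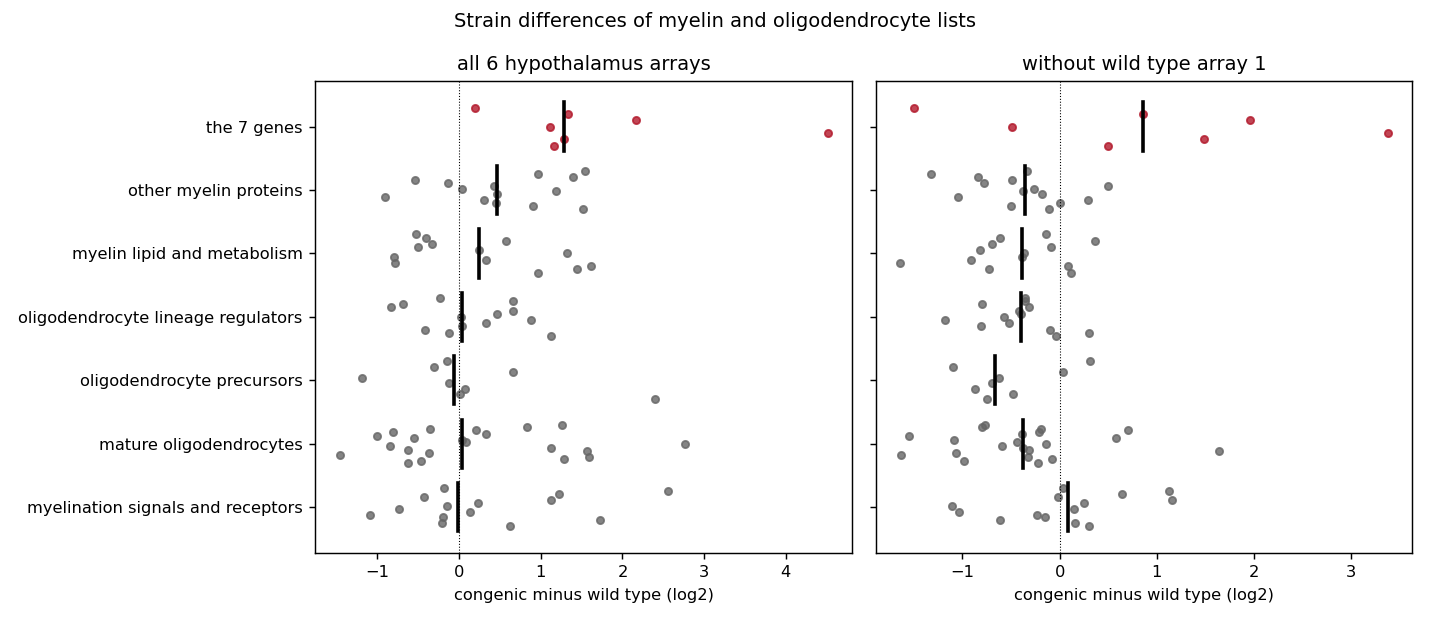
Congenic minus wild type difference in hypothalamus (log2, horizontal axis) of each measured gene of the 7-gene family (red) and of 6 other lists (grey), with the list median as a black bar, for all 6 arrays and without wild type array 1. Without that array the medians of the 5 myelin, lineage and precursor lists lie between -0.66 and -0.36, while that of the 7 genes is 0.86.

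The genes whose hypothalamic values were most like the mean of the family were not on those lists. Over the 6 hypothalamus arrays, Pearson's r with the mean of the 7 genes, each centred on its own mean, was highest for Ppm1a (0.999), Mageh1 (0.997), Oaz2 (0.996), Ik (0.995) and Snx10 (0.995) among 8561 genes above the median probe. Over the 5 arrays without wild type array 1 the 5 highest were Ppm1a (0.997), Bmerb1, Fam171b, Ylpm1 and Mageh1 (each 0.996). Ppm1a, a protein phosphatase, read 11.44, 12.27 and 13.26 on the congenic arrays and 10.10, 11.62 and 11.76 on the wild type arrays. An r above 0.9 over 6 arrays was reached by 276 of the 8561 genes (3.22%) and by 0 of 64 genes from the 5 oligodendrocyte lists. Over 5 arrays the counts were 361 of 8612 (4.19%) and 2 of 65 (3.08%), with Mal the highest of these at rank 190. The mean follows the genes of widest span and is not a pattern that all 7 shared: over the 5 arrays, r with the mean of the other 6 genes was 0.98 for Olig1, 0.954 for Cnp, 0.86 for Mbp and 0.786 for Mag, but 0.183 for Mog, 0.124 for Olig2 and -0.448 for Pllp. These values describe a few arrays that share RNA preparation and normalization, and carry no p.

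In skeletal muscle the family did not separate the strains either. None of the 7 genes passed (limma, adjusted p of 0.835 to 0.996), none had an unadjusted p under 0.05, and 6 probes of the whole array passed (0.0182%, with 5.01% under an unadjusted 0.05). Mbp read 10.48, 10.96 and 11.63 on congenic muscle arrays and 10.03, 10.22 and 11.09 on wild type muscle arrays. Its difference was 0.58 (SE 0.41, 95% interval -0.33 to 1.5, adjusted p = 0.835 by limma), and the groups overlapped. Pllp read 9.75, 9.35 and 10.17 against 9.06, 9.29 and 8.71, a difference of 0.74 (SE 0.42, adjusted p = 0.835 by limma) with every congenic array above every wild type array, as for 6.65% of all probes.

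The other 5 genes overlapped between the strains in muscle. Olig2 read 11.17, 10.37 and 10.49 against 11.75, 10.92 and 11.46, a difference of -0.70 (SE 0.34, 95% interval -1.47 to 0.08). Mag read 8.23 to 9.01, Cnp 7.97 to 9.64, Olig1 7.40 to 8.36 and Mog 7.56 to 9.03 over the 6 arrays. These 4 genes were thus near or below the median probe. The median difference of the 7 genes was 0.02, beside 0.01 over all probes.

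Of 12 Schwann cell genes 8 were measured. Pmp22, a protein of peripheral myelin, read 11.20 to 12.51 in muscle and 7.97 to 10.43 in hypothalamus, and the signal gene Dhh 9.05 to 12.38 and 7.82 to 10.04. The myelination factor Egr2 read 7.75 to 8.62 in muscle, below the median probe, and Gldn, a gene of the nodes, 7.5 to 9.90. The median difference of the 8 genes in muscle was 0.61, with 6 of 8 higher in congenics and 0 of 8 passing.

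Whether the strain difference itself differed between the tissues was tested as an interaction over the 12 arrays, and 0 of 7 genes and 0% of all probes passed. Olig2 had an interaction of 2.03 (SE 0.74, 95% interval 0.42 to 3.64, unadjusted p = 0.0175, adjusted p = 0.913 by limma), the only 1 of the 7 with an unadjusted p under 0.05, against 3.63% of all probes. It was higher on every congenic hypothalamus array and lower on average in congenic muscle.

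The tissues differed clearly for some of the genes. As each tissue was normalized on its own, these differences compare places in 2 value distributions. Hypothalamus minus muscle, averaged over the strains, passed for 4 of 7 genes with all arrays, where 29.5% of all probes passed, and for the same 4 without wild type array 1, where 40.5% passed. Leaving out each array in turn gave 3 to 6 of 7: Cnp did not pass without wild type muscle array 2 (1.73, adjusted p = 0.0532 by limma), and Mbp and Olig1 passed without congenic hypothalamus array 1. Pllp was 4.33 higher in hypothalamus (SE 0.72, adjusted p = 0.000429 by limma) with all arrays, and 5.17 higher (SE 0.22, adjusted p = 1.42e-10) without that array. Mog was 3.12 higher in hypothalamus (SE 0.72, adjusted p = 0.0046 by limma), and 3.91 higher without that array. Cnp was 1.96 higher (SE 0.57, adjusted p = 0.0184 by limma), and 2.30 higher without it. On the 5 arrays all 3 genes were above every muscle array, as for 11.8% of all probes.

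Olig2 went the other way. Its muscle values of 10.37 to 11.75 were all above its hypothalamus values of 7.68 to 10.05, which gave -1.74 (SE 0.37, adjusted p = 0.00282 by limma) with all arrays and -1.51 (SE 0.28, adjusted p = 0.000566) without wild type array 1. Such a separation was found for 17.7% of all probes without that array. A probe for an oligodendrocyte factor that reads higher in muscle does not follow the label of the family, and what the probe reports there was not tested. Mbp (1.21, SE 1.04, adjusted p = 0.441 by limma), Olig1 (1.39, SE 0.57, adjusted p = 0.0836) and Mag (0.39, SE 0.54, adjusted p = 0.643) did not pass between tissues with all arrays. Without congenic hypothalamus array 1, Mbp was 2.31 higher in hypothalamus (adjusted p = 0.0195 by limma) and Olig1 1.95 higher (adjusted p = 0.00301 by limma). Their hypothalamus values overlapped those of muscle. For Mbp, congenic array 1 and the wild type arrays read 7.44 to 11.17 where muscle read 10.03 to 11.63.

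Without wild type array 1, 37 of the 69 genes on the other oligodendrocyte lists were called higher in hypothalamus and 9 lower. In that fit 40.5% of all probes were called. With all arrays, where 29.5% were called, the counts were 31 and 6. Without that array Gsn (-5.96), Cryab (-3.8) and Lpin1 (-3.2) were among the 9 called lower. The lists thus hold genes that are not particular to oligodendrocytes. The median tissue difference without that array was 1.18, beside -0.23 over all probes.

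Mog is the gene of the family on chromosome 17, the chromosome named in the strain. It stood at place 376 of the 656 measured genes there by the gene order of GRCm38.p6. No label says whether the segment reaches it. Of the 10 measured genes on each side, 0 of 20 passed in any comparison. With an unadjusted limma p under 0.05 there were 2 in hypothalamus (2410137M14Rik and Olfr98), against 1.99% of all probes. Without wild type array 1 there was 1 (2410137M14Rik), against 5.33%, and in muscle 1 (Ppp1r11), against 5.01%. In hypothalamus 2410137M14Rik read 7.11 to 9.40 and Olfr98 6.59 to 9.68, around or below the median probe of 8.98. Olfr98 lies outside the nearest 3 and is named after its values were seen. The nearest on one side were Ppp1r11, Znrd1 and 2410137M14Rik, and on the other Gabbr1, Olfr90 and Olfr91.

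The nearest neighbours gave mixed values. Ppp1r11, an inhibitor of protein phosphatase 1, read 15.63, 15.70 and 16.38 in congenic muscle and 14.59, 14.38 and 14.70 in wild type muscle, a difference of 1.35 (unadjusted p = 0.000126, adjusted p = 0.297 by limma) with no overlap. In hypothalamus its groups overlapped. The transcript 2410137M14Rik read 7.36, 7.11 and 7.15 in congenic hypothalamus against 9.02, 9.40 and 8.01 in the wild type, which is a difference of -1.60 (adjusted p = 0.936 by limma). Gabbr1, a subunit of the GABA-B receptor, read 7.75, 8.84 and 12.86 against 7.23, 8.59 and 9.12, so that it too was highest on congenic array 3. Znrd1, Olfr90 and Olfr91 overlapped between the strains in both tissues, with differences of -0.47 to 0.57.

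**Figure D5:**
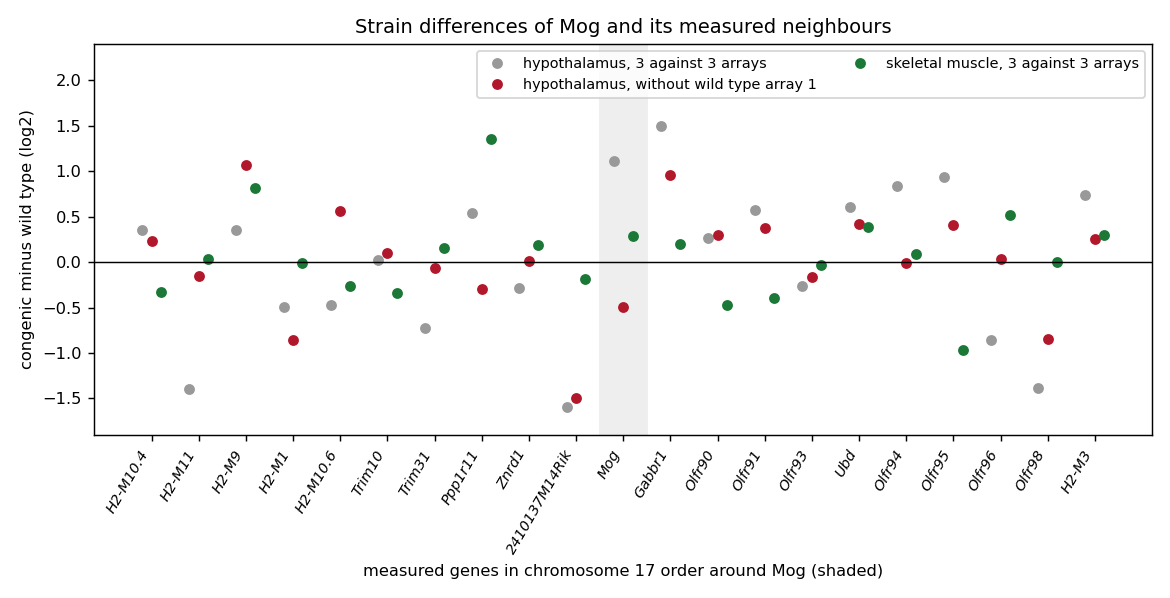
Congenic minus wild type difference (log2, vertical axis) of Mog (shaded) and the 10 measured genes on each side in chromosome 17 order, evenly spaced, for hypothalamus with all arrays, hypothalamus without wild type array 1, and muscle. Ppp1r11 stands at 1.35 in muscle, and Mog runs from -0.49 to 1.11 over the 3 comparisons.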

How the data were processed

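RNA of 2 tissues was measured on 12 arrays. Per the labels' protocols, total RNA was isolated with TRI-Reagent, cleaned on Qiagen columns and transcribed to cRNA carrying digoxigenin, by a kit of Applied Biosystems. The authors deposited values that are read here as log2, normalized within each tissue, since the 6 arrays of a tissue share 1 distribution. The software is not given in the sources used here, nor is the background correction. Groups were taken from the sample titles, because the descriptions name the congenic strain even for wild type samples. No 2 arrays were identical. Only the series text calls the mice biological replicates. Should that not hold for each array, p-values measure just the spread between these samples, which may be technical.

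From the deposited values, strain differences were fitted per tissue in R 4.3.3 by lmFit and eBayes of limma 3.58.1 with its trend option, on the unfiltered set of 33012 probes, with Benjamini-Hochberg adjustment. The interaction and the tissue difference were fitted over all 4 groups. The fits were tried on simulated data with independent noise and no array that stood apart. That trial does not bear on wild type hypothalamus array 1. Probes were named from the platform annotation (14411 with 1 symbol, 247 with several, 18354 without a name), and 14402 of the first kind matched the RefSeq gene table of GRCm38.p6. For a gene with several probes the one with the highest mean was used. The number of arrays limits the precision.

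The genes and lists were chosen with earlier results of these data known. Named were all members, the first 4 measured genes of each myelin, lineage and Schwann cell list in listed order, the 5 genes most like the family mean and the 3 nearest neighbours of Mog on each side. Lists of other cells are given by their medians or the hormones and control genes that mark an array. Alternatives were each array left out, the replicate number as a block, no trend, both tissues in 1 fit, array weights, a floor at the 20th percentile, a filter at the 30th percentile, and other scalings.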

Additional observations from a re-analysis of the deposited data

How the results depend on the processing

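The count of genes of the family called in the hypothalamus, 0 of 7, kept its value under every alternative run with all 6 arrays. Scaling to a common upper quartile could not change it, as the arrays of a tissue share 1 distribution. Array weights turned Mog to -0.43 and Pllp to -1.49 with all arrays, Cnp to -0.12 without wild type array 1 and Mag in muscle to -0.11.

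Without wild type array 1, the count of all probes called, 0, became 5 with array weights, 7 with both tissues in 1 fit and 19 with the replicate block. Leaving out a further array gave 0 to 606 probes, and 0 to 1 genes of the family, the 1 being Pllp without congenic array 3. In muscle the 6 probes called became 1 with both tissues in 1 fit, 2 with the floor, 2 without the trend and 2 to 8 with an array left out.

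The numbers in the titles did not pair the hypothalamus arrays. There, correlations of same-numbered arrays' deviations were 0.0343, -0.129 and 0.138, against -0.156 to 0.144 for arrays of different number. In muscle they were 0.0695, 0.0147 and 0.0634, against -0.0835 to 0.017, so a weak pairing is not excluded in that tissue. With the replicate block and without wild type array 1, 1 gene was called, Mbp at 5.59 (adjusted p = 2.59e-06 by limma). That fit compares 2 pairs of arrays, as congenic array 1 has no partner. The block called no other gene of the family in a strain comparison.

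With 1 array left out, signs turned as follows. In hypothalamus Mog ran from -0.49 to 2.02 and Pllp from -1.5 to 1.10, and without wild type array 1 Cnp ran from -0.28 to 1.29. In muscle Mag ran from -0.18 to 0.19, Cnp from -0.81 to 0.02, Olig1 from -0.35 to 0.03 and Mog from -0.12 to 0.52, and the median of the 7 genes from -0.02 to 0.19. The interaction ran from -0.78 to 1.72 for Mog and from -2.23 to 0.36 for Pllp, and the tissue difference from -0.18 to 0.72 for Mag. The count of genes called between tissues ran from 3 to 6. The cause of these turns was not tested beyond the array left out. With 2 or 3 arrays per group and no detection calls, a difference whose interval spans 0 cannot be told from no difference here.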
